A study of Mus musculus with 12 samples.

Results

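The transcripts described here encode 9 enzymes that turn cholesterol into bile acids: Cyp7a1, Cyp8b1, Cyp27a1, Cyp7b1, Cyp39a1, Cyp2c70, Akr1d1, Akr1c6 and Hsd3b7. They were found by gene symbol among the 55359 genes of a liver read count table, and all 9 had a row. Of these, 8 had reads and passed the filter on low counts, so that 8 of the 15274 genes tested were bile acid enzymes, and Hsd3b7 was listed at 0 in every library.

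The livers were those of 12 male mice of the C57BL/6NTac strain, 4 per group. The lean group was kept on normal chow and the HFD control group on a high-fat diet, with a control mRNA for both. The NM-FGF19 group had the high-fat diet too and was given mRNA coding for NM-FGF19, a variant of FGF19 without its growth-promoting activity. All mRNAs were carried by lipid nanoparticles and given weekly for 6 weeks, with livers taken 24 hours after the last dose. High-fat feeding ran for 21 weeks before treatment, and the labels give 28 weeks of feeding in all but also call the mice 24 weeks old. A baseline group on the high-fat diet, taken before treatment, is not analysed here. The count columns of the HFD control group carry the name mOX40L while those of the lean group do not, so any difference between their control mRNAs cannot be told apart from the diet.

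Bile acids are made in hepatocytes by a classical route that starts with Cyp7a1 and by an alternative route that starts with Cyp27a1 and goes on through Cyp7b1. Cyp8b1 adds the hydroxyl group that makes cholic acid, and in mice Cyp2c70 makes the muricholic acids. FGF19 is the human form of mouse Fgf15, a gut hormone that lowers bile acid synthesis by acting on Fgfr4 and its co-receptor beta-klotho on hepatocytes.

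Libraries held 23743415 to 33257260 counted reads, and the floor of 3 counts lay between 0.0792 and 0.153 CPM. CPM are the reads of a gene scaled to a common library total. Levels are CPM with library totals adjusted by TMM, given per mouse in replicate order 1 to 4 or as mean ± SD. Changes are log2 fold changes ± SE with edgeR quasi-likelihood p-values adjusted by the Benjamini-Hochberg method over 15274 genes, called at 0.05. Summed hepatocyte markers, 7 genes including Alb, were 83444 to 104117 CPM in lean, 51721 to 72470 CPM in HFD control and 89810 to 136340 CPM in NM-FGF19 livers. Alb alone averaged 54535, 33241 and 75215 CPM in the same order, while Ttr averaged 4689, 4743 and 4764 CPM. In HFD control against lean livers edgeR called 1 of the 7 lower, DESeq2 5 and limma voom 2. With NM-FGF19 against HFD controls edgeR and limma voom called 0, and DESeq2 called 3 higher. In bulk tissue fewer hepatocytes and less RNA per hepatocyte cannot be told apart. Among markers of 9 other liver cell types, edgeR calls in HFD control against lean livers included 5 of 7 for resident Kupffer cells, all lower, and 6 of 8 for recruited macrophages, all higher. In NM-FGF19 against HFD control livers edgeR called 1 marker of those 9 types, the adipocyte gene Cfd, which was lower. DESeq2 called that 1 and also 3 of the 7 Kupffer markers, all higher, which were under 0.05 before adjustment in edgeR, and limma voom called 0 of either list. Of 8 stellate cell and fibroblast markers, edgeR called 4 in HFD control against lean livers, all higher. The summed level was 427 to 583, 126 to 463 and 92.0 to 379 CPM for the Kupffer list, 81.5 to 323, 127 to 387 and 93.4 to 241 CPM for the recruited macrophage list and 191 to 247, 419 to 1047 and 299 to 886 CPM for the stellate list in lean, HFD control and treated livers, and no marker of these lists was at 0 in a whole group. The part of these shifts in the enzyme levels was not tested.

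Lean 3 and HFD control 3 stood apart from their groups in an earlier analysis of these data. Here lean 3 correlated with the other lean livers at r of at most 0.956, against 0.968 to 0.976 among those, and HFD control 3 with its group at 0.946 to 0.971, against 0.968 to 0.980 among the others. The value of 0.946 was that of HFD control 3 with HFD control 2. NM-FGF19 4 correlated with its group at 0.958 to 0.969, against 0.975 to 0.978 among the other treated livers, so these 2 libraries were not the only ones apart. Without lean 3 and HFD control 3, Cyp7a1 differed by −5.09 ± 1.05 (adjusted p = 0.146), Cyp8b1 by −1.72 ± 0.22 (0.0105) and Cyp27a1 by −0.71 ± 0.14 (0.0744) between NM-FGF19 and HFD control livers. Against lean livers the treated livers then differed by −4.34 ± 1.02 (0.0889), −1.85 ± 0.22 (0.00640) and −1.08 ± 0.14 (0.00935) for the same genes, and the diet difference of Cyp27a1 was −0.37 ± 0.15 (0.209).

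Cyp7a1 encodes cholesterol 7-alpha-hydroxylase, the rate-limiting step of the classical route. Its level was 431, 64.1, 155 and 33.9 CPM in the lean mice and 246, 241, 73.5 and 386 CPM in the HFD controls. In NM-FGF19 mice it was 5.15, 20.2, 3.28 and 5.70 CPM. All 4 treated livers lay below all 8 others, while the lean and HFD control ranges overlapped, and the lowest and highest lean livers were 12.7-fold apart.

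NM-FGF19 against HFD control livers compares NM-FGF19 mRNA with the control mRNA on the high-fat diet. Any effect of that control mRNA, whose columns are named mOX40L, cannot be told apart from that of NM-FGF19. Cyp7a1 differed by −4.79 ± 0.95, a 27.6-fold lower fitted level, which was the 4th lowest log2 change of the 15274 genes and yet missed the threshold (adjusted p = 0.0672). Its spread within groups was an SD of 1.27 on the log2 scale, against a median of 0.32 over all genes tested, and 1.66% of genes had a larger one. The same contrast passed with DESeq2 (adjusted p = 1.53e-05), limma voom (0.0310), edgeR without its robust option (0.0300) and a stricter count filter (0.0484). It also passed without lean 1 (0.0381) or lean 4 (0.0455), and over all 23 alternatives its adjusted p ran from 1.53e-05 to 0.238. The log2 change stayed between −5.65, without NM-FGF19 2, and −4.45, without HFD control 4.

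Cyp8b1 encodes sterol 12-alpha-hydroxylase, which sets the share of cholic acid. It measured 472, 345, 305 and 405 CPM in lean mice and 277, 432, 372 and 389 CPM in HFD controls. In NM-FGF19 mice it was 90.8, 82.3, 151 and 123 CPM. Treated livers did not overlap with either other group, and the lean and HFD control livers covered nearly the same range. Against HFD controls the log2 change of Cyp8b1 was −1.72 ± 0.22, a fall to a 3.28-fold lower level (adjusted p = 0.00699), and the gene ranked 3rd of 15274 genes by p. It was the 1 enzyme of 8 tested that passed in this comparison, in which 0.432% of all genes tested were called, 0.282% higher and 0.151% lower. With library totals alone 46.4% of all calls were higher, in place of 65.2%, and the median of all genes tested was −0.13. In edgeR 0 of the 8 rose, and 0 were higher at an unadjusted p under 0.05, in DESeq2 or in limma voom. Its call held in all 23 alternatives, with log2 changes of −1.90 to −1.60.

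**Figure D1:**
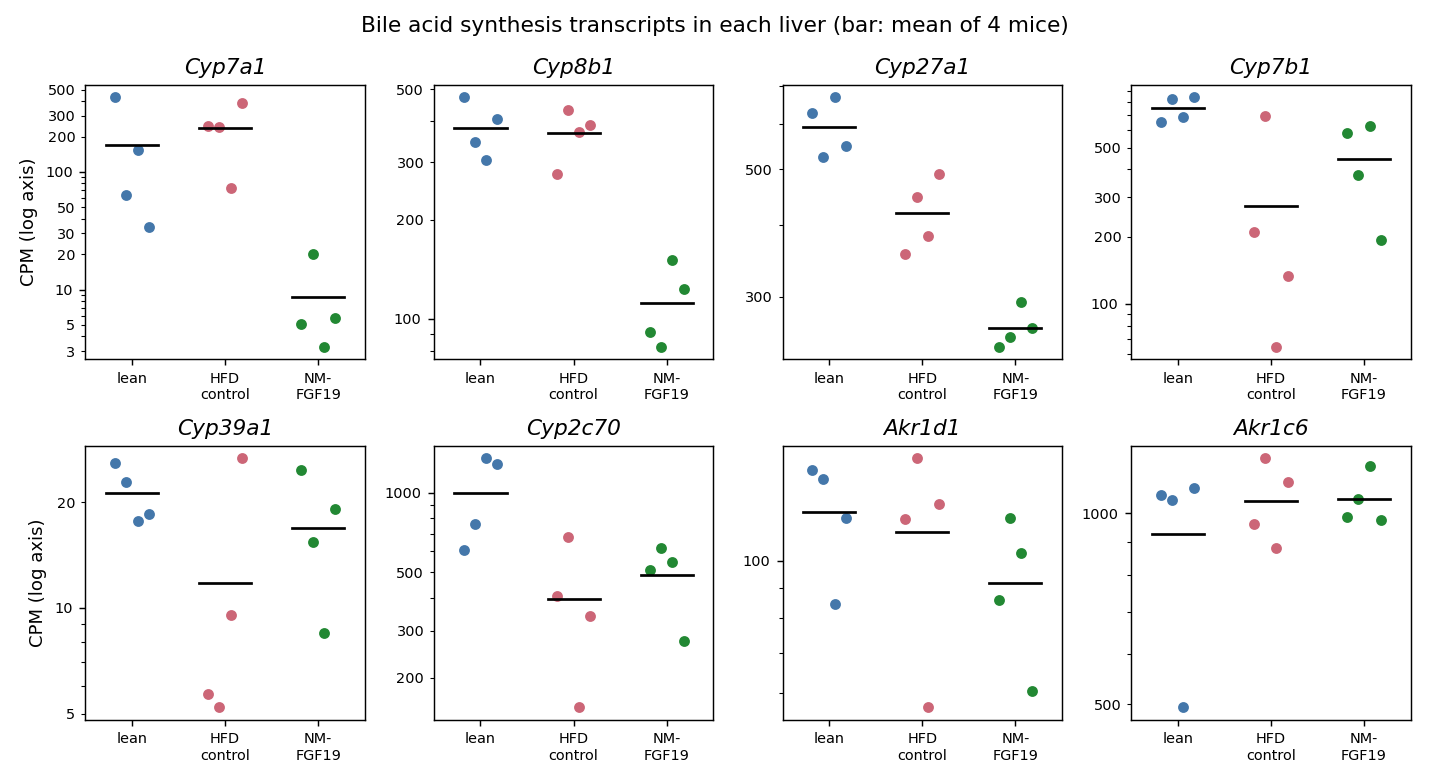
CPM (log axis) of 8 enzyme transcripts in each liver, with 1 point per mouse and a bar at the mean of 4 mice. NM-FGF19 livers lie below all others for Cyp7a1, at 3.28 to 20.2 CPM, for Cyp8b1, at 82.3 to 151 CPM, and for Cyp27a1, at 246 to 294 CPM.

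The promoter of Cyp8b1 is shown because this gene carried the call, and those of Cyp27a1, which starts the alternative route, and Cyp2c70, which makes muricholic acids, stand beside it for comparison. Each sequence is the 250 bases before the gene start in RefSeq on GRCm38.p6, an older build than the mm39 of the counts. A table of promoters matched 6 of the 9 enzymes, namely Cyp8b1, Cyp27a1, Cyp2c70, Akr1d1, Akr1c6 and Hsd3b7. Capitals mark matches on either strand to CAAAGTCCA, a motif of the liver factor Hnf4a, or to NCAAGGNCA, a motif of Nr5a2 (LRH-1).
Cyp8b1, chr9:121916306-121916555, minus strand: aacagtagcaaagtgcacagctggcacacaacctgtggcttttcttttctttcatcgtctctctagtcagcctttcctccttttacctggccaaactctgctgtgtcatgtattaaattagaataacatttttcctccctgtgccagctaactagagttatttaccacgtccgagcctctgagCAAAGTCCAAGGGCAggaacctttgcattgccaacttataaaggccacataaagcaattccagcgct
Cyp27a1, chr1:74713285-74713534, plus strand: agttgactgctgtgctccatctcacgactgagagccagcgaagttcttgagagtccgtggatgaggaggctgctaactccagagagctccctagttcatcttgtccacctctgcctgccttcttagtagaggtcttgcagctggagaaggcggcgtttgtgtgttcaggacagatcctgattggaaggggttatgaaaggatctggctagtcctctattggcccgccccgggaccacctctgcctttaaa
Cyp2c70, chr19:40187287-40187536, minus strand: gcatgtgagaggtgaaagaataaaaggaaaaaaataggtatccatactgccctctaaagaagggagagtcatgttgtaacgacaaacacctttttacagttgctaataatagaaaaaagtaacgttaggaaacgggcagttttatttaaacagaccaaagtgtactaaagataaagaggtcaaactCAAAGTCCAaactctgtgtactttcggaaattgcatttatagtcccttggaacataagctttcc

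In Cyp8b1 a match to the Hnf4a motif lay 67 to 59 bases before the start and a match to the Nr5a2 motif 61 to 53 bases before it, so that the matches shared 3 bases. Cyp2c70 held the Hnf4a motif 64 to 56 bases before its start. Among the 6 promoters Akr1c6 held the Nr5a2 motif as well, 43 to 35 bases before its start. Of 32851 promoters of the same length, 0.384% held the Hnf4a motif and 5.51% the Nr5a2 motif. A match describes letters and not binding. Cyp8b1, which fell on treatment, held both motifs, while Cyp2c70 held the Hnf4a motif alone and Akr1c6 the Nr5a2 motif alone, and these genes did not pass. Cyp27a1 held neither motif, yet its treated livers lay below all HFD controls, and it was called lower against lean livers. Akr1d1 also held neither motif and did not pass. No promoter of Cyp7a1 was available, and a role of the motifs was not tested.

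Cyp27a1 encodes the mitochondrial sterol hydroxylase that opens the alternative route and oxidises the side chain in both routes. Its level was 626, 526, 668 and 550 CPM in lean mice and 357, 448, 382 and 490 CPM in HFD controls. In NM-FGF19 mice it was 246, 255, 294 and 265 CPM. The 3 groups did not overlap, with lean livers highest and treated livers lowest, and the SD within groups, 0.17 on the log2 scale, was below that of 85.7% of genes tested. Against HFD controls Cyp27a1 differed by −0.66 ± 0.14, a 1.58-fold lower level (adjusted p = 0.0696), and it passed with DESeq2 (0.000221) and with library totals alone (0.0298), and in none of the 12 fits that left out 1 library (0.0532 to 0.260).

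Among the 8 enzymes tested, groups did not overlap for 3 in NM-FGF19 against HFD control livers, all lower (Cyp7a1, Cyp8b1 and Cyp27a1), where 2.38% of all genes tested lay lower and 3.23% higher without overlap. The median log2 change over the 8 was −0.14, beside −0.00048 over all genes tested. The other 5 enzymes had log2 changes of −0.29 to 0.69 and adjusted p-values of 0.820 to 0.996.

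Cyp7b1 encodes oxysterol 7-alpha-hydroxylase, the next step of the alternative route, and is known as a male-biased gene of mouse liver. It was at 653, 823, 689 and 841 CPM in lean mice, 210.0, 692, 64.4 and 134 CPM in HFD controls and 580.3, 378, 629 and 193 CPM in NM-FGF19 mice. Lean livers were alike, with a 1.29-fold range, while HFD controls spanned 10.7-fold and HFD control 2 alone lay within the lean range. Cyp7b1 differed by −1.45 ± 0.61 on the high-fat diet (adjusted p = 0.167) and by 0.69 ± 0.60 with NM-FGF19 (adjusted p = 0.820). Without HFD control 2 the diet difference was −2.47 (adjusted p = 0.0110) and the treatment difference 1.71 (adjusted p = 0.124).

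Cyp2c70 makes the muricholic acids of mice. Its level was 605, 758, 1348 and 1286 CPM in lean mice, 407, 679, 154 and 343 CPM in HFD controls and 511, 615, 547 and 275 CPM in NM-FGF19 mice. HFD control 2 was again the highest and HFD control 3 the lowest of their group, and NM-FGF19 4 the lowest of the treated livers for both genes. Cyp2c70 differed by −1.34 ± 0.41 on the high-fat diet (adjusted p = 0.0653), which passed with DESeq2 (0.00831) and without HFD control 2 (0.0228), and by 0.30 ± 0.41 with NM-FGF19 (adjusted p = 0.904).

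Over 12 livers the log2 CPM of Cyp7b1 and Cyp2c70 had a Pearson r of 0.89, and 0.82 after group means were taken out. These values describe libraries that share their scaling. The genes most like Cyp7b1, among 11013 with a mean of at least 2 CPM and an informative name, were Serpina1e, Sec63 and Nudt7, with r of 0.98 each over 12 livers. Serpina1e and Nudt7 are on a list of 10 male-biased liver genes, whose summed level was 22945 to 30960 CPM in lean, 5988 to 17552 CPM in HFD control and 9349 to 19789 CPM in NM-FGF19 livers. Serpina1e was a large part of that sum, averaging 17870, 3896 and 7537 CPM in the same order. Over the list the log2 changes on the high-fat diet ran from −2.20 for Serpina1e to 0.77, with a median of −0.81. Of the 10, C8a, for a complement subunit, fell on the high-fat diet in edgeR (−1.30 ± 0.25, adjusted p = 0.0114) and 9 did not pass. There 4 of the 10 were lower before adjustment at 0.05, DESeq2 called 4 lower and limma voom 2, and 0 were higher. Of these genes 0 of 10 passed with NM-FGF19 in edgeR, where 2 higher and 1 lower were under 0.05 before adjustment, or in DESeq2 or limma voom. On a list of 10 female-biased genes 8 were tested, and Cyp17a1, for a steroid hydroxylase, fell on the high-fat diet in edgeR (−2.65 ± 0.67, adjusted p = 0.0355). There 4 were higher and 3 lower before adjustment at 0.05, DESeq2 called 2 higher and 2 lower, and limma voom called 1 lower. Of the female-biased genes 0 of 8 passed with NM-FGF19 in edgeR, with 1 under 0.05 before adjustment, 1 called by DESeq2 and 0 by limma voom. Genes most like Cyp2c70 were Gripap1, Il13ra1 and U2af1, each with r of 0.96.

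Cyp39a1 encodes a hydroxylase of the brain-derived oxysterol that reaches the liver, and it had the lowest level of the 8 in lean and HFD control livers. It was at 25.9, 22.8, 17.7 and 18.5 CPM in lean mice, 5.70, 5.21, 9.55 and 26.7 CPM in HFD controls and 24.6, 15.4, 8.46 and 19.1 CPM in NM-FGF19 mice. HFD control 4 lay above every other liver and the other 3 HFD controls below every lean one. Cyp39a1 differed by −0.85 ± 0.49 on the diet (adjusted p = 0.313), or by −1.64 without HFD control 4 (adjusted p = 0.0206), and by 0.52 ± 0.48 with NM-FGF19 (adjusted p = 0.837), or by 1.31 ± 0.33 without HFD control 4 (adjusted p = 0.239).

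Both reductases of the set overlapped in all 3 groups. Akr1d1, the 5-beta-reductase that bends the steroid ring, was at 142, 137, 84.6 and 118 CPM in lean mice, 117, 149, 56.7 and 125 CPM in HFD controls and 85.8, 118, 103 and 60.4 CPM in NM-FGF19 mice. Akr1c6, a hydroxysteroid dehydrogenase, was at 1069, 1051, 495 and 1098 CPM in lean mice, 964, 1222, 882 and 1122 CPM in HFD controls and 987, 1055, 1189 and 976 CPM in NM-FGF19 mice. Apart from lean 3, every Akr1c6 value lay between 882 and 1222 CPM. With NM-FGF19 the log2 changes against HFD controls were −0.29 ± 0.28 for Akr1d1 (adjusted p = 0.847) and 0.0063 ± 0.22 for Akr1c6 (adjusted p = 0.996), the latter −0.12 with library totals alone. Akr1c6 belongs to a cluster of similar genes, and whether reads shared by its copies were counted is not given in the sources used here. Its counts are therefore uncertain, as are those of Cyp2c70 in the Cyp2c family.

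**Figure D2:**
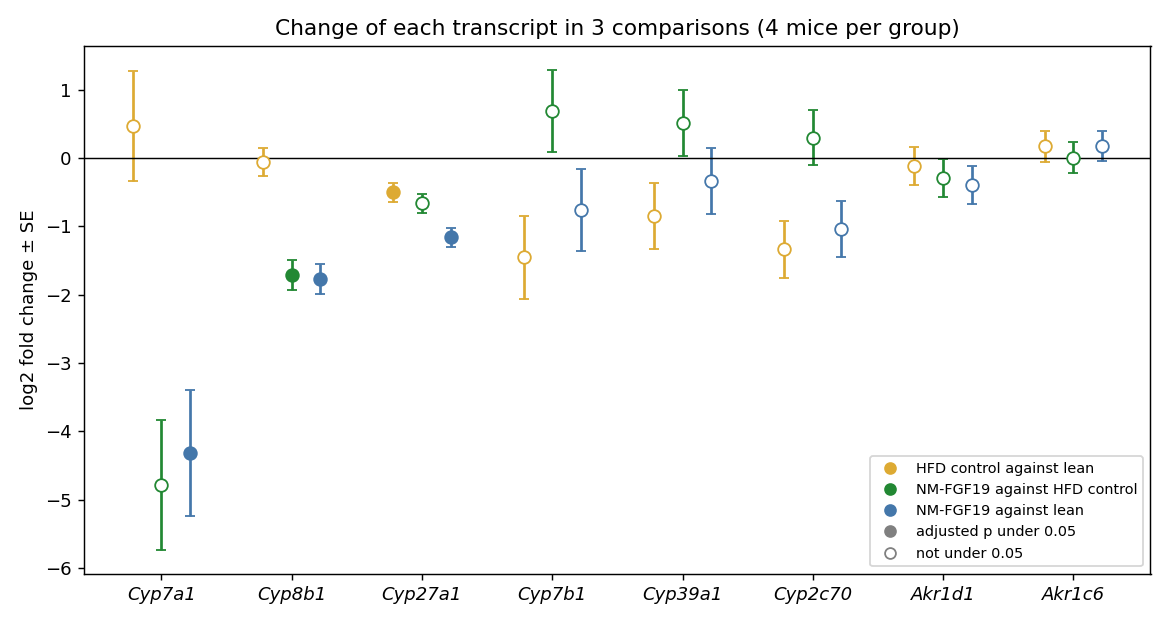
Log2 fold change ± SE (edgeR, n = 4 per group) of 8 enzymes in 3 comparisons, with filled points where the adjusted p was under 0.05. Cyp8b1 with NM-FGF19 against HFD control, Cyp27a1 on the high-fat diet, and Cyp7a1, Cyp8b1 and Cyp27a1 in NM-FGF19 against lean livers are filled.

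Hsd3b7 encodes the dehydrogenase that acts after the first hydroxylation in both routes, and hepatocytes need it to make bile acids. The table lists it at 0 in all 12 libraries. In the GENCODE M21 annotation, of the older build GRCm38, 62.0% of its 2769 exon bases are shared with Gm49388, a gene on the same strand that spans Setd1a and Hsd3b7, and 62.4% with 9430064I24Rik on the opposite strand. Exons of other genes covered 99.2% of its bases on either strand together. Gm49388 was also at 0 in all 12 libraries, and 9430064I24Rik had 119, 166 and 188 counts in all in lean, HFD control and treated livers.

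Genes with more of their exons overlapped on 1 strand than Hsd3b7, which is in neither class counted here, were mostly at 0. Of 183 protein-coding genes with at least 95% of exon bases shared on the same strand, 162 (88.5%) were at 0, against 4548 of 20792 (21.9%) with under 5% shared. Of 45 genes covered to at least 95% on the opposite strand and under 5% on the same strand, 38 (84.4%) were at 0. The value of 0 for Hsd3b7 is given as listed and not as a level, and no change was computed for it. The cause of the 0 was not tested. The other 8 enzymes shared 0 exon bases with another gene on either strand.

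HFD control and lean livers differed in diet and possibly in control mRNA, and their difference is called that of the diet for short. Of the 8 enzymes 1 fell, 0 rose and 7 did not pass, in a comparison with 8.33% of all genes tested called, 5.04% higher and 3.29% lower. Cyp27a1 was the 1 that fell, with a log2 change of −0.50 ± 0.14 (adjusted p = 0.0475) and a 1.41-fold lower level. It was also the 1 enzyme of 8 whose groups did not overlap, where 6.89% of genes tested lay lower and 8.4% higher without overlap. That call held in 1 of 12 fits without 1 library, the one without HFD control 4 (0.0458), and was lost in the other 11 (up to 0.155, without HFD control 1). With library totals alone Cyp27a1 was at −0.19 (adjusted p = 0.359), and in that scaling the median of all genes tested moved from −0.02 to 0.29 and the share of higher calls from 60.5% to 91.3%. Cyp7a1 differed by 0.47 ± 0.80 (adjusted p = 0.770), or by 1.49 ± 0.75 without lean 1 (adjusted p = 0.257), and Cyp8b1 by −0.06 ± 0.21 (adjusted p = 0.901), or 0.23 with library totals alone. Akr1d1 differed by −0.11 ± 0.28 (adjusted p = 0.852), or 0.17 with library totals alone, and Akr1c6 by 0.17 ± 0.22 (adjusted p = 0.690). The median over the 8 was −0.30, beside −0.02 over all genes tested.

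NM-FGF19 against lean livers sets treated high-fat livers beside chow livers. Of the 8 enzymes 3 fell, 0 rose and 5 did not pass, where 1.49% of all genes tested were called, 1.01% higher and 0.484% lower. With library totals alone the share of higher calls moved from 67.5% to 86.9% and the median of all genes tested from −0.012 to 0.17. The log2 changes were −1.77 ± 0.22 for Cyp8b1 and −1.16 ± 0.14 for Cyp27a1 (adjusted p = 0.00324 each), 3.41- and 2.23-fold lower levels that kept their calls in all 23 alternatives. These 2 ranked 7th and 8th of 15274 genes by p. For Cyp7a1 it was −4.32 ± 0.93 (adjusted p = 0.0489), a 20.0-fold lower level.

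The Cyp7a1 call against lean livers held in 3 of 12 fits without 1 library, those without lean 4, HFD control 3 or NM-FGF19 2. It was lost without each of lean 1, 2 and 3, HFD control 1, 2 and 4, and NM-FGF19 1, 3 and 4, with adjusted p up to 0.133, and the log2 change was −3.30 without lean 1 and −5.17 without NM-FGF19 2. It was also lost with no filter (0.110), the 2 groups only (0.101) and the replicate block (0.131). Cyp7b1 was at −0.76 ± 0.60 (adjusted p = 0.574) although its groups did not overlap, as for 4 of the 8 enzymes against 4.84% of all genes tested lower and 5.46% higher without overlap. Cyp2c70 was at −1.04 ± 0.41 (adjusted p = 0.224), and Cyp39a1, Akr1d1 and Akr1c6 lay between −0.39 and 0.18 (adjusted p from 0.519 to 0.788). Libraries of each group serve in 2 of the comparisons, so that these are not independent of each other.

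Ratios of 2 transcripts within a liver need no scaling of the library. The log2 ratio of Cyp8b1 to Cyp7a1 counts was 1.78 ± 1.53 in lean, 0.84 ± 1.06 in HFD control and 4.03 ± 1.46 in NM-FGF19 livers (mean ± SD, n = 4), and the treated livers, from 2.02 to 5.53, overlapped with both other groups. The log2 ratio of Cyp7b1 to Cyp7a1, the 7-alpha-hydroxylases of the 2 routes, was 2.77 ± 1.77, −0.11 ± 1.25 and 5.93 ± 1.54 in the same order. Treated livers, at 4.23 to 7.58, lay above all HFD controls, at −1.53 to 1.52, and overlapped with lean livers, at 0.60 to 4.63. For Cyp27a1 over Cyp7a1 the means were 2.43 ± 1.48, 1.04 ± 0.92 and 5.32 ± 1.19.

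The log2 ratio of Cyp2c70 to Cyp8b1, the muricholic against the cholic acid branch, was 1.33 ± 0.77 in lean, −0.06 ± 0.89 in HFD control and 2.10 ± 0.76 in NM-FGF19 livers. Every treated liver, at 1.16 to 2.90, lay above every HFD control, at −1.27 to 0.65, and overlapped with the lean ones, at 0.36 to 2.14. These ratios were computed on transcripts, and no bile acid was measured in the files used here.

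**Figure D3:**
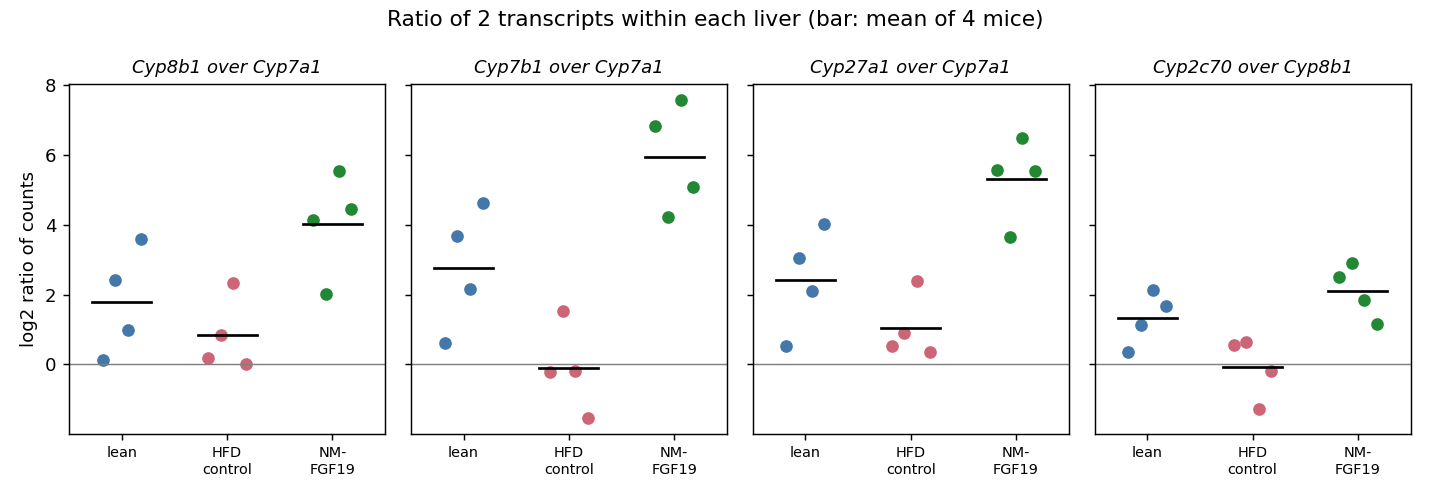
Log2 ratio of counts of 2 transcripts in each liver, with 1 point per mouse and a bar at the mean of 4 mice. For Cyp7b1 over Cyp7a1, Cyp27a1 over Cyp7a1 and Cyp2c70 over Cyp8b1 all NM-FGF19 livers lie above all HFD control livers.

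Per kilobase of exon in GENCODE M21, Akr1c6 had the highest level of the 8 in HFD control (515 ± 75.4 CPM per kb) and NM-FGF19 livers (517 ± 48.1), and Cyp2c70 in lean livers (505 ± 188, beside 457 ± 142 for Akr1c6, with overlapping ranges). Cyp7a1 was 7th of 8 in lean livers (40.9 ± 43.3 CPM per kb, next to Akr1d1 at 41.7 ± 9.03), 6th in HFD control livers (56.7 ± 30.6) and last in NM-FGF19 livers (2.06 ± 1.88). In treated livers Cyp39a1 was the next above it, at 5.53 ± 2.22 CPM per kb, and their ranges overlapped. Cyp8b1 went from 188 ± 33.6 CPM per kb in HFD control to 57.4 ± 16.1 in NM-FGF19 livers, and Cyp27a1 from 193 ± 28.1 to 122 ± 9.62.

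Cyp7a1 is a known output of the liver clock, and livers differed in their clock genes. A score over 14 clock genes, high where genes such as Dbp and Per3 are high, ran from −1.23 to 0.97 in lean, −0.55 to 0.71 in HFD control and −0.40 to 1.01 in NM-FGF19 livers. In each group the liver with the highest Cyp7a1 level also had the highest score, namely lean 1, HFD control 4 and NM-FGF19 2. In the NM-FGF19 group the whole order was the same for both, with NM-FGF19 2 highest, then 4, 1 and 3. The other lean and HFD control livers did not follow such an order. Lean 3, with the lowest lean score (−1.23), had 155 CPM of Cyp7a1, above lean 2 and lean 4. HFD control 3, with a score of 0.60, had the lowest Cyp7a1 level of its group (73.5 CPM). Over 12 livers r between the score and log2 CPM was 0.14 for Cyp7a1, −0.18 for Cyp8b1, −0.61 for Cyp7b1 and −0.69 for Cyp2c70. With group means taken out, r was 0.59 for Cyp7a1, 0.034 for Cyp8b1, −0.55 for Cyp7b1 and −0.63 for Cyp2c70. Of the 14 clock genes 0 passed in edgeR in any comparison, with 2, 1 and 1 under 0.05 before adjustment on the diet, with NM-FGF19 against HFD controls and against lean livers. DESeq2 called 0, 0 and 1 of them and limma voom 0 in each.

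With the clock score as a covariate, Cyp7a1 differed between NM-FGF19 and HFD control livers by −5.05 ± 0.77 and passed (adjusted p = 0.0242), and the 1 call among the 8 enzymes became 2. Genes most like Cyp7a1 over the 12 livers were Ces1b (r = 0.93), Gde1 (0.90) and Nup54 (0.89), and those most like Cyp8b1 were Nat8f5 (0.92), Csad (0.91) and Fam213b (0.91). After group means were taken out, r was 0.66, 0.57 and 0.79 for the first 3 and 0.22, 0.11 and 0.67 for the others. Ces1b belongs to a family of similar genes, so its counts are uncertain.

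**Figure D4:**
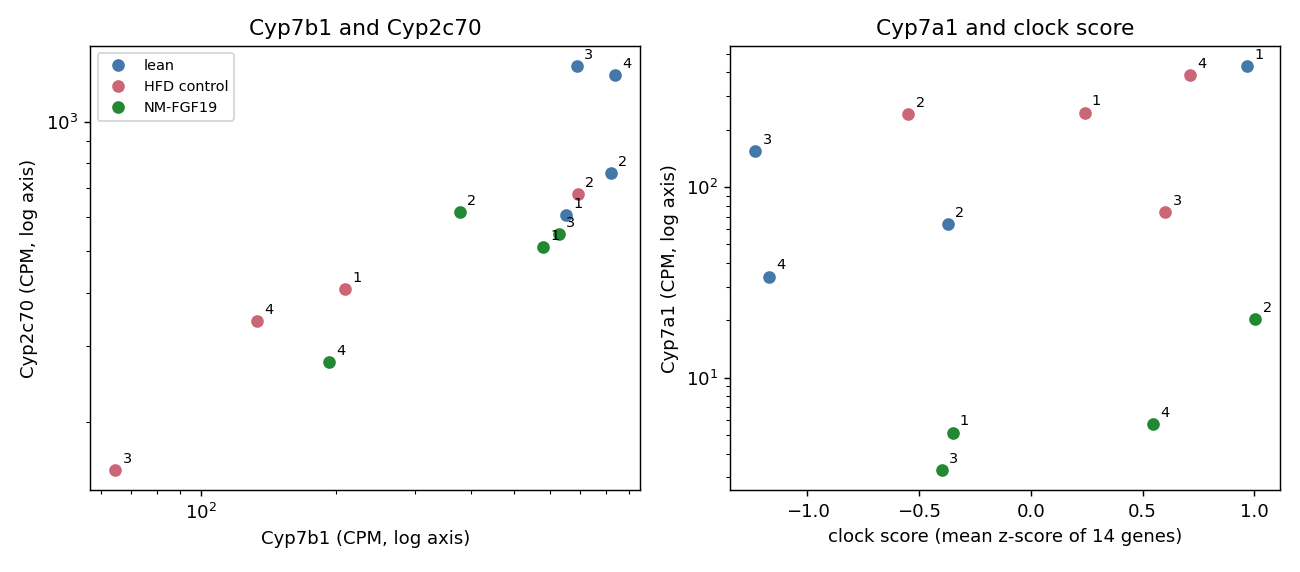
Left, Cyp2c70 against Cyp7b1 (CPM, log axes), and right, Cyp7a1 (CPM, log axis) against the clock score over 14 genes (mean z-score), with 1 point per liver labelled by its replicate number. Cyp2c70 rises with Cyp7b1 (r = 0.89 on the log2 scale). In each group the liver with the highest Cyp7a1 level has the highest score, while r between Cyp7a1 and the score over all 12 livers is 0.14.

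For the gene lists here and above, the shares of all genes tested that edgeR called serve for comparison. They were 8.33% on the diet, 0.432% with NM-FGF19 against HFD controls and 1.49% against lean livers. In lists this short, a count of 0 does not set their genes apart from all genes tested. Of 12 other genes of bile acid synthesis, 11 were tested and 0 were called by edgeR or limma voom in each comparison. Before adjustment 5 were under 0.05 on the diet, 0 with NM-FGF19 against HFD controls and 2 against lean livers, and DESeq2 called 3, 0 and 2. Slc27a5, for the ligase that activates bile acids, was at 875 ± 116, 602 ± 150 and 556 ± 121 CPM in the lean, HFD control and NM-FGF19 groups, and Baat, which joins them to taurine, at 255 ± 29.3, 182 ± 32.0 and 168 ± 13.1 CPM. Against lean livers Baat differed by −0.48 ± 0.14 on the diet (adjusted p = 0.0545) and by −0.60 ± 0.14 in NM-FGF19 livers (0.0550), and Slc27a5 by −0.54 ± 0.21 (0.122) and −0.65 ± 0.21 (0.126). With NM-FGF19 against HFD controls Baat differed by −0.12 (0.887) and Slc27a5 by −0.11 (0.938). Acox2, a peroxisomal oxidase that shortens the side chain, was at 204 ± 37.9, 248 ± 22.8 and 213 ± 53.7 CPM.

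Of 16 regulators 15 were tested, and edgeR and limma voom called 0 in each comparison. Before adjustment 2, 1 and 2 were under 0.05 on the diet, with NM-FGF19 against HFD controls and against lean livers, and DESeq2 called 1, 0 and 0. Nr0b2 (SHP), the repressor induced by bile acids, was at 26.8 ± 24.2, 23.7 ± 10.5 and 38.7 ± 12.2 CPM in the lean, HFD control and NM-FGF19 groups, with a treatment difference of 0.71 ± 0.52 (adjusted p = 0.774). The receptor gene Fgfr4 was at 58.4 ± 10.3, 39.7 ± 14.3 and 41.6 ± 7.54 CPM and Klb, for beta-klotho, at 30.1 ± 9.57, 23.8 ± 6.09 and 29.9 ± 5.35 CPM. Nr5a2, which drives Cyp8b1, was at 66.9 ± 14.2, 65.7 ± 13.1 and 80.4 ± 8.31 CPM. Fgf15 had 0 counts in lean and HFD control livers and 2 in NM-FGF19 livers.

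Of 12 bile acid transporter genes 10 were tested, and on the diet Abcc3, an export pump, rose by 2.23 ± 0.37 (adjusted p = 0.00772) and Slc10a1, the main uptake carrier, was lower at −0.84 ± 0.24 with overlapping groups (adjusted p = 0.04997, not called by limma voom). With NM-FGF19 against HFD controls 0 of 10 passed in edgeR, DESeq2 or limma voom, with 5 under 0.05 before adjustment. Of 9 pericentral and 8 periportal hepatocyte markers, all 3 tools called 0 with NM-FGF19 against HFD controls, with 1 and 0 under 0.05 before adjustment, and Cyp2f2, a periportal gene, fell on the diet (−1.47 ± 0.32, adjusted p = 0.0181).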

How the data were processed

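Read counts per gene were deposited as raw counts by the authors, made with Trimmomatic, STAR and featureCounts on mm39 per the submitters' processing notes. Not given in the sources used here: tool versions, annotation, strand mode and how reads that fit several genes were treated. The kit was stranded and took 100 ng of RNA per library, per the labels. All 12 columns were matched to samples by name. Symbols matched 52083 of 55359 genes.

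The main test was edgeR 4.0.16 in R 4.3.3 (TMM, filterByExpr with a minimum count of 10, robust quasi-likelihood F test, all 12 samples, group only). The SE is the one implied by the F statistic. Log2 CPM used a prior count of 2. Alternatives used DESeq2 1.42.0, limma 3.58.1, other scalings and filters, the 2 groups only, the replicate number as a block, a clock score and libraries left out. The fit was tested on simulated data. Nothing says how samples of a group were raised, so p-values measure the spread between these samples. Floors cover counting error only.

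The named genes are the 9 enzymes, a fixed set of 8 genes (Nr0b2, Fgfr4, Klb, Fgf15, Nr5a2, Slc27a5, Baat, Acox2), called genes of the pathway lists (up to 3 per direction), and the 3 genes most like 4 of the enzymes. A further promoter motif that was searched is not reported here. Members and lists were chosen with earlier results of these data known.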

Additional observations from a re-analysis of the deposited data

Results flagged for a closer look

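The level of Cyp7a1 in NM-FGF19 2, at 20.2 CPM, stood apart from the other 3 treated livers, which lay between 3.28 and 5.70 CPM. Without that liver the log2 change against HFD controls was −5.65. The level of Akr1c6 in lean 3, at 495 CPM, stood apart from the other lean livers, which lay between 1051 and 1098 CPM. Without lean 3 the log2 change of Akr1c6 on the diet was −0.010. These were 2 of 24 groups of 4 that were looked at, and chance alone marks about 1 in 20.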

How the results depend on the processing

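Over 23 alternatives the 8 enzymes gave 489 of 552 values with the same direction and side of the threshold, 31 that lost a call, 13 that gained one and 19 that changed sign. Lower calls in NM-FGF19 against HFD control livers numbered 1 in the main analysis, 2 with library totals alone, the stricter filter, no robust option, limma voom or the clock score, 3 with DESeq2, and 1 to 2 without 1 library. On the diet they numbered 1, and 0 with library totals alone, no filter, the stricter filter, the 2 groups only, the replicate block, the clock score or without lean 3 and HFD control 3, 2 with DESeq2, and 0 to 2 without 1 library. Against lean livers they numbered 3, and 2 with no filter, the 2 groups only, the replicate block or without lean 3 and HFD control 3, and 2 to 3 without 1 library. Cyp8b1 and Akr1d1 changed sign on the diet with library totals alone, at 0.23 and 0.17, and ran from −0.14 to 0.081 and from −0.28 to 0.11 without 1 library. Akr1c6 with NM-FGF19 against HFD controls changed sign with library totals alone (−0.12), the stricter filter (−0.0041) and without those 2 libraries (−0.075), and ran from −0.068 to 0.089 without 1 library. Against lean livers it was −0.011 without the 2 libraries and −0.012 to 0.28 without 1, and on the diet −0.010 to 0.29. The causes were not tested.

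Replicate numbers shared no deviation: 0 of 12 same-numbered pairs had a correlation above 0.1 (−0.363 to 0.0712), and 0 of 12 libraries correlated best with their own number. With the replicate block 593, 18 and 40 genes were called in place of 1272, 66 and 228 on the diet, with NM-FGF19 against HFD controls and against lean livers. DESeq2 called 2220, 289 and 969. Library totals alone called 2609 and 398 on the diet and against lean livers, the clock score 661 and 95, limma voom 112 against lean livers, and the 2 groups only 38 and 117 with NM-FGF19 against HFD controls and lean livers. Without lean 3 and HFD control 3 the diet gave 480 and NM-FGF19 against HFD controls 38. Adding 2 counts to both transcripts moved each mean ratio by less than its SD.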
